A study of Mus musculus with 12 samples.

Results

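Immediate-early genes and heat shock genes are 2 sets of genes that cells switch on within minutes to hours of a stimulus. The 38 genes described here were listed by symbol as genes that respond to tissue dissociation and stress, and all 38 were found once each among the 31054 features of the treated files. They comprised 14 transcription factors of the immediate-early response, 12 early-response regulators and feedback inhibitors, and 12 heat shock proteins and chaperones. The rule used gene symbols and no measured value.

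Immediate-early genes are transcribed from factors already present in the cell, without new protein synthesis, and many of their products (the Fos and Jun subunits of AP-1, Egr1, Nr4a1) are themselves transcription factors. Others, such as Dusp1, Zfp36, Nfkbia and Socs3, shut the response down again. Heat shock genes are driven mainly by heat shock factor 1 when unfolded proteins accumulate, and encode chaperones of the Hsp70, Hsp90, Hsp40 and mitochondrial Hsp60 systems. Both sets are known to be induced in microglia when brain tissue is dissociated with enzymes and sorted.

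Single-cell 3-prime RNA libraries were compared from 4 busulfan-conditioned C57BL/6J mice that had received lineage-negative marrow cells of male donors, transduced with a lentiviral vector for GFP, either into a vein (i.v., a female and a male) or into the cerebral ventricle (i.c.v., a female and a male). All of these mice also received untransduced total bone marrow i.v. afterwards. Brain cells were dissociated enzymatically, sorted for CD45, CD11b and CX3CR1, and split into a GFP+ library (microglia-like cells, MLCs, of donor origin) and a GFP- library (mostly endogenous microglia) for each mouse, giving 4 and 4 libraries. A treatment-naive mouse gave 1 library each of microglia, astrocytes, neurons and blood mononuclear cells (PBMCs), without replicates. The labels give ages of 22 to 28 weeks for the treated mice and 8 to 12 weeks for the naive one, and the study's text gives a longer time after dosing than the former. The promoter that drives GFP was not given in the sources used here, and GFP- cells could include donor cells without the vector.

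A minimum of 200 genes and a maximum of 10% mitochondrial UMIs were required of a barcode, and 2266 to 4555 cells and 4970758 to 16514669 unique molecular identifiers (UMIs) remained per treated library, with 341 to 1274 cells per naive library. The GFP+ library of the i.v. female stood apart in depth, with a median of 3499 UMIs per cell against 842 to 1307.5 in the other treated libraries. At least 3 of 10 microglia markers were found in 94.9% to 97.8% of GFP- cells and in 61.2% to 78.5% of GFP+ cells, and at least 3 of 9 markers of CNS-associated macrophages in 3.93% to 13.3% and 33.9% to 48.3%. The naive library labelled neurons went against its label, since 95.5% of its cells held at least 3 of 8 oligodendrocyte markers and 0.522% held 3 of 8 neuronal markers, and it is called the library labelled neurons throughout. At most 8 cell barcodes were shared by any pair of libraries. No doublet caller was run. Levels are UMIs scaled to a common total per library (CPM), and each UMI counts a transcript end, so levels can be compared between genes without correction for length.

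Upstream sequences are printed first for 4 heat shock members with a heat shock element and for Fos, an immediate-early member without one, as 250 bases before the start site from RefSeq on GRCm38.p6, or as 30 bases around a motif where the window overlaps an annotated transcript. Windows were found for 29 of the 38 members. Hspa1a and Hspa1b, the inducible Hsp70 genes, are neighbors on chromosome 17 whose windows matched at 247 of 250 bases, and reads of such near-identical copies can be split uncertainly between them. Capitals mark the heat shock element GAANNTTC, which is its own reverse complement, in Hspa1a (chr17:34972157-34972406, minus strand) and Hspa1b (chr17:34959239-34959488, minus strand).
Hspa1a: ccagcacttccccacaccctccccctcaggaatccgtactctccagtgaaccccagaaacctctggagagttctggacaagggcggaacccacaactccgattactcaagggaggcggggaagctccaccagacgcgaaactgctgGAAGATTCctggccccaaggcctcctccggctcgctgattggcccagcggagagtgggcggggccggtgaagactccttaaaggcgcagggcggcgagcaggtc
Hspa1b: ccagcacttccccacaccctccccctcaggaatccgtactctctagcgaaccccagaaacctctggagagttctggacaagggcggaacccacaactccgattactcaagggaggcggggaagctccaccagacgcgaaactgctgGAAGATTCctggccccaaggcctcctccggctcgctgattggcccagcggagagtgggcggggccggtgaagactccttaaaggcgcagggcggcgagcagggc

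Hspe1 and Hspd1, which encode the mitochondrial chaperonin Hsp10 and Hsp60, lie head to head on chromosome 1, with annotated ends that overlap, and both rose in the GFP+ sort. The stretch upstream of Hspe1 at chr1:55088053-55088082, which lies within annotated Hspd1 and is printed on the plus strand, held 3 overlapping matches to GAANNTTC or TTCNNGAA. The Hsph1 stretch at chr5:149636351-149636380 (minus strand) held 1 match. It lay before the RefSeq start site but within Hsph1 as annotated by GENCODE (chr5:149614287-149636376). The Fos window (chr12:85473640-85473889, plus strand) held TATAAA, marked in capitals.
Hspe1: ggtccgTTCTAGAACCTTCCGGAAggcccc
Hsph1: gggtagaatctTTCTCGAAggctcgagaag
Fos: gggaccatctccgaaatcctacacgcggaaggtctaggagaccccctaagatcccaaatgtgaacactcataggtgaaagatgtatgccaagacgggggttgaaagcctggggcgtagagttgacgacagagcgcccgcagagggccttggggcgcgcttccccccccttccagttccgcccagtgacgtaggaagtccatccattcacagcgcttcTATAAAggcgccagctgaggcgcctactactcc

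Either heat shock element, searched on both strands, was found for 7 of the 9 heat shock members with a window (Hspa1a, Hspa1b, Hsph1, Dnaja1, Hspe1, Hspd1 and Hspb1) and for 1 of the 20 immediate-early members with a window (Jun), against 12.8% of all 32851 windows of the same length. The former counts are of members and the latter share is of windows. Dnaja1 had 3 windows, and Hsph1, Hspd1 and Dnajb1 had 2 each, against at most 1 for an immediate-early member. The windows of Hspa1a and Hspa1b are near-identical, so they are not separate cases. The cAMP response element TGACGTCA was found for Dusp1, Btg2 and Ppp1r15a, against 1.55% of all windows. The AP-1 site TGANTCA was found for Hspa5 and the CArG box for Zfp36, against 6.75% and 1.47% of windows. These matches describe letters in the windows only.

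Immediate-early members ranged widely in level, from a mean of 39.5 CPM for Myc to 4346 CPM for Jun over the treated libraries. Together they took 2.44% to 3.03% of UMIs in GFP+ libraries, 2.78% to 3.41% in GFP- libraries and 3.31% in naive microglia. PBMCs held 1.82%, naive astrocytes 0.201% and the library labelled neurons 0.187%, and under the stricter cell filter the last 2 held 0.332% and 0.562%. Heat shock members took 0.460% to 1.20% in GFP+ libraries, 0.408% to 0.900% in GFP- libraries, 0.933% in naive microglia, 0.631% in PBMCs, 0.506% in astrocytes and 1.14% in the library labelled neurons. The immediate-early set thus separated the brain myeloid libraries from the astrocyte library and that of oligodendrocyte-marker cells, whereas the heat shock set did not. These 2 libraries also differed in RNA quality. Malat1 stood at 169434 CPM in astrocytes and 42547 CPM in the library labelled neurons, against 34234 to 71336 CPM in treated libraries. The median mitochondrial share per cell was 6.22% and 7.42%, against 1.33% to 2.53%. The part of RNA quality in the low immediate-early shares was not tested.

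**Figure D1:**
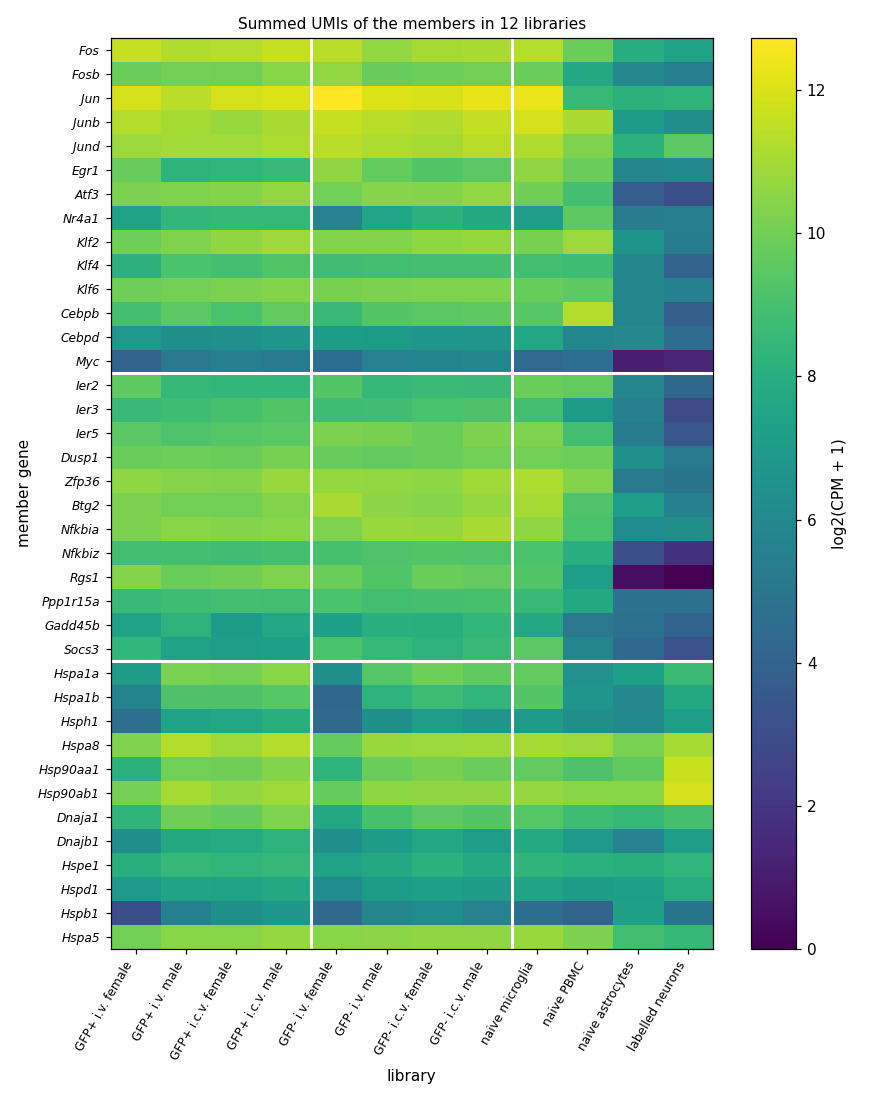
Levels of the 38 members (rows, in the order transcription factors, regulators, heat shock) in 12 libraries (columns), as log2(CPM + 1) of summed UMIs. Immediate-early rows are dark in astrocytes and in the library labelled neurons, and among treated libraries the heat shock rows are darkest in the i.v. female.

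The 5 most abundant members in the treated libraries were Jun, Fos, Junb, Jund and Hspa8. In the following, values of a sort are given in the order i.v. female, i.v. male, i.c.v. female, i.c.v. male. Jun, the AP-1 subunit, stood at 3795, 2763, 3801 and 4323 CPM in GFP+ cells and at 6819, 4337, 3947 and 4981 CPM in GFP- cells. It was lower in the GFP+ library of every mouse on this scale, although the ranges overlapped, and naive microglia held 5257 CPM. Junb was at 2457, 2066, 1760.5 and 2259 CPM in GFP+ cells against 3167, 2606, 2368 and 2988 CPM in GFP- cells. Jund was at 1830.0, 1980.4, 2014 and 2308 CPM against 2768, 2320.5, 2045 and 2676 CPM. Hspa8, the constitutive Hsp70, was at 1226, 2448, 1954 and 2488 CPM in GFP+ cells and 855, 1739, 1780.3 and 1947 CPM in GFP- cells, lowest in the i.v. female in both sorts.

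GFP+ and GFP- libraries were compared to ask which members differ between engrafted and endogenous cells. Of the 38 members, 4 rose in GFP+ cells (Fos, Rgs1, Hspe1 and Hspd1) and 1 fell (Ier5) by edgeR's quasi-likelihood test at an adjusted p under 0.05. Over all 11756 genes tested, 32.5% were called (16.6% higher and 15.9% lower), so the members' share (5 of 38) lay under the background. Fold changes had a median of 0.28 (log2) over the members and 0.01 over all genes, and 28 of 38 members were above 0. In bulk sums such as these, fewer cells of a type and less RNA per cell cannot be told apart.

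The scale matters for these directions. TMM factors were 0.859 to 0.967 in GFP+ and 1.04 to 1.16 in GFP- libraries, and on plain CPM the median of all genes shifted to -0.27 (log2), where 38.9% of genes were called. On plain CPM 18 of 38 members were above 0, Hspe1 rose, and Ier5, Socs3, Btg2 and Nfkbiz fell, while Fos, Rgs1 and Hspd1 did not pass. The ranges of the sorts did not overlap in plain CPM for Ier5, Btg2 and Nfkbiz, 3 of 38 members against 38.9% of all genes.

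Fos, an AP-1 subunit on chromosome 12 (chr12:85473890-85477273 on GRCm38), stood at 3089, 2368, 2521 and 3121 CPM in GFP+ cells and at 2743, 1652, 2104 and 2242 CPM in GFP- cells. It was higher in the GFP+ library of 4 of 4 mice, with overlapping ranges. The log2 fold change was 0.63 (SE 0.18, adjusted p = 0.0296 from edgeR). Fos did not pass with every cell drawn down to 500 UMIs (log2 0.36, adjusted p = 0.284), nor on plain CPM (log2 0.34, adjusted p = 0.136), both by edgeR, and leaving out single libraries moved its adjusted p between 0.0295 and 0.0722. It lost the call without the GFP+ library of the i.v. female, the GFP- library of the i.v. male, or either library of the male dosed i.c.v. Fos was also not called in the i.v. mice alone or the i.c.v. mice alone.

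Rgs1, a regulator of G protein signaling known in activated microglia (chr1:144242296-144249242), stood at 1305, 934, 989 and 1243 CPM in GFP+ cells and 949, 626, 905 and 813 CPM in GFP- cells. It too was higher in the GFP+ library of every mouse, although the GFP- library of the i.v. female overlapped the GFP+ range. The log2 fold change was 0.72 (SE 0.19, adjusted p = 0.0180 from edgeR), and it kept its call without each of the 8 libraries in turn. Rgs1 was not called in the i.c.v. mice alone. In the astrocyte library Rgs1 was at 0.416 CPM, and the library labelled neurons had 0 UMIs, which allows up to 0.807 CPM.

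Hspe1 (chr1:55088132-55091307), whose product caps the mitochondrial chaperonin, was at 256, 357, 332 and 361 CPM in GFP+ cells and 162, 208, 279.7 and 221 CPM in GFP- cells. The log2 fold change was 0.86 (SE 0.20, adjusted p = 0.0116 from edgeR), the smallest adjusted p among the members, and the call held without each of the 8 libraries in turn. Hspe1 was not called in the i.c.v. mice alone. Its neighbor Hspd1 (chr1:55077835-55088243) was at 112, 170.1, 162 and 204 CPM in GFP+ cells and 71.0, 124, 147 and 129 CPM in GFP- cells (log2 0.73, SE 0.25, adjusted p = 0.0478 from edgeR). Both were higher in the GFP+ library of 4 of 4 mice. Hspd1 lost its call when any of 6 of the 8 libraries was left out (adjusted p up to 0.113 by edgeR), and kept it without the GFP+ library of the i.v. female or the i.c.v. female's GFP- library. It also lost its call with all deposited barcodes, under the stricter cell filter and within either route alone (adjusted p up to 0.141 over all alternatives, by edgeR).

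Ier5, an immediate-early gene linked to the heat shock factor (chr1:155096361-155099636), stood at 711, 600.4, 666 and 703 CPM in GFP+ cells and at 1204, 1129, 926 and 1179 CPM in GFP- cells. These ranges did not overlap. The log2 fold change was -0.44 (SE 0.12, adjusted p = 0.0196 from edgeR), and it lost its call without the GFP+ library of the i.v. male or the i.c.v. male's GFP- library (adjusted p up to 0.0642 by edgeR). It was -0.73 on plain CPM and -0.85 with 500 UMIs per cell, called in both, and it was not called in the i.v. mice alone or the i.c.v. mice alone (adjusted p up to 0.114 by edgeR). Naive microglia held 1235 CPM, above every treated library.

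**Figure D2:**
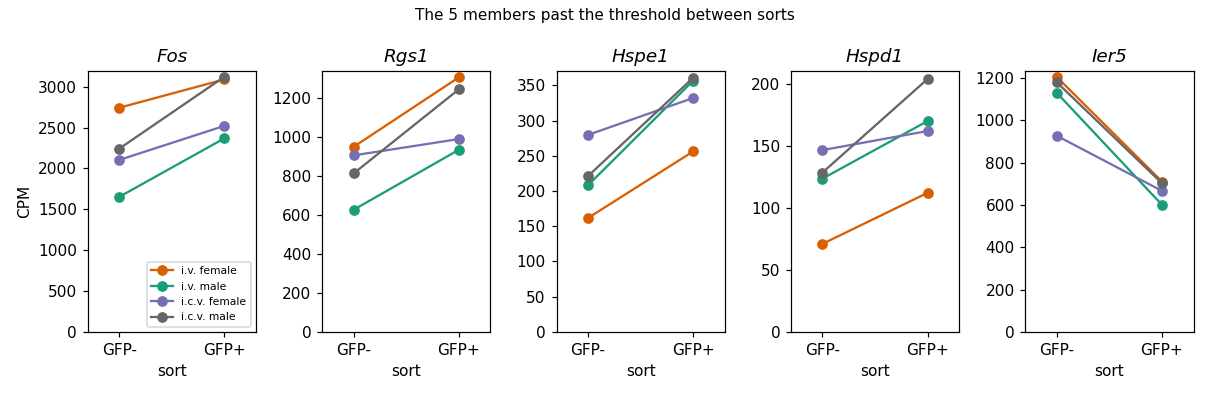
Levels in CPM (y axis, from 0) of the 5 members called between sorts, in GFP- and GFP+ libraries, with a line for each of 4 mice. All 4 lines rise for Fos, Rgs1, Hspe1 and Hspd1 and fall for Ier5.

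GFP+ and GFP- libraries came in pairs from the same mice. With the mouse as a block, 12 members rose and 3 fell, where 27.4% of all genes were called. The members called in addition were Hspa1a, Hspa1b, Hsph1, Hspa8, Hsp90ab1, Dnaja1, Dnajb1 and Nr4a1 (higher) and Egr1 and Socs3 (lower). Thus 9 of 12 heat shock members rose with the block, against 2 of 12 without it. The other 3 heat shock members, Hsp90aa1, Hspb1 and the endoplasmic reticulum chaperone Hspa5, did not pass.

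Hspa1b rose most among them, with a log2 fold change of 1.26 with the block (SE 0.21, adjusted p = 0.0159 from edgeR) and 1.07 without it (SE 0.87, adjusted p = 0.370). Dnaja1, an Hsp40 co-chaperone, was at 317, 1005, 850.5 and 1237 CPM in GFP+ cells and 206, 524, 726 and 645 CPM in GFP- cells (log2 0.97 with the block, adjusted p = 0.0223, and 0.96 without it, adjusted p = 0.135, by edgeR). Hsph1, the Hsp110 exchange factor, was at 24.3, 168, 188 and 264 CPM against 19.9, 79.4, 135 and 98.2 CPM (log2 1.11 with the block, adjusted p = 0.0218, and 1.19 without it, adjusted p = 0.202, by edgeR). In all of these the GFP+ library of each mouse was the higher one, and the spread between mice was large.

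Nr4a1, an orphan nuclear receptor, was at 159, 345, 352 and 352 CPM in GFP+ cells and 48.5, 179, 292 and 207 CPM in GFP- cells (log2 1.20 with the block, adjusted p = 0.0284, and 0.99 without it, adjusted p = 0.136, by edgeR). The zinc finger factor Egr1 went the other way, at 872, 312, 334 and 377 CPM in GFP+ cells and 1593, 845, 643 and 739.6 CPM in GFP- cells (log2 -0.77 with the block, adjusted p = 0.0157, and -0.70 without it, adjusted p = 0.194, by edgeR). Socs3, the feedback inhibitor of cytokine receptors, was at 350.2, 161, 133 and 149 CPM against 566, 372, 299.7 and 387 CPM (log2 -0.83 with the block, adjusted p = 0.0212, and -0.73 without it, adjusted p = 0.118, by edgeR). Egr1 and Socs3 were lower in the GFP+ library of 4 of 4 mice, and the i.v. female held the highest level in each sort.

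**Figure D3:**
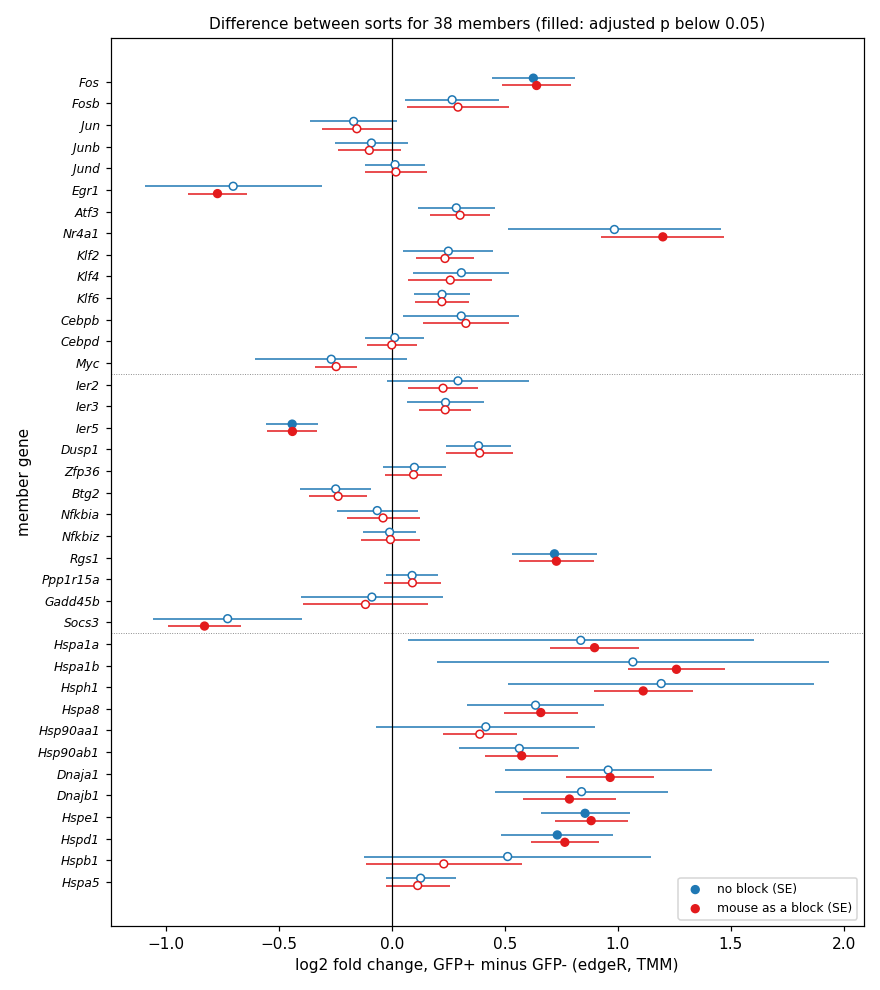
Log2 fold change of GFP+ over GFP- libraries (x axis, edgeR with TMM) for each member, with bars of 1 SE, without a block (blue) and with the mouse as a block (red). Filled points passed an adjusted p of 0.05, and 7 of the 12 heat shock points are filled only with the block.

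Every kept cell of the treated libraries had at least 500 UMIs, so drawing each cell to 500 UMIs before summing left out no cell and gave each the same weight. In those sums no member rose, and Ier5, Socs3 and Egr1 fell, where 13.6% of 9591 genes were called. The log2 fold change of Socs3 was -1.42 (adjusted p = 0.000659 from edgeR) and that of Egr1 -1.10 (adjusted p = 0.0211 from edgeR). Rgs1, Hspd1 and Hspe1 stayed above 0 (log2 0.60, 0.63 and 0.60) with adjusted p of 0.0805, 0.0907 and 0.117 by edgeR.

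The sums are led by deep cells. Cells with over 5000 UMIs were 23.2% to 39.4% of GFP+ cells and held 71.0% to 80.2% of their UMIs, against 5.25% to 10.2% of GFP- cells and 32.4% to 47.1% of UMIs. Within the GFP+ libraries the immediate-early share was 2.56% to 3.25% in these cells and 1.79% to 2.37% in cells of 1000 to 5000 UMIs. Within the GFP- libraries it was 2.84% to 3.56% and 2.56% to 3.26%. In cells under 1000 UMIs it was 2.31% to 2.70% of GFP+ and 2.72% to 3.40% of GFP- UMIs, above the share in cells of 1000 to 5000 UMIs in each of the 8 libraries, so the share did not follow depth in 1 direction. The heat shock share was highest in cells over 5000 UMIs in each of the 8 libraries. There it was 0.480%, 1.109%, 0.972% and 1.257% in GFP+ and 0.466%, 1.001%, 1.049% and 0.986% in GFP- libraries. It was higher in GFP+ for each mouse except the i.c.v. female. In cells of 1000 to 5000 UMIs it was 0.395%, 0.844%, 0.879% and 1.054% against 0.367%, 0.650%, 0.765% and 0.713%. GFP+ was higher in every mouse here and under 1000 UMIs (i.v. female 0.370% against 0.369%). The part of cell depth in the differences between sorts was not tested.

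Cells with markers of CNS-associated macrophages were more frequent in the GFP+ sort, as given above, and the sorts also differed in RNA content. Summed ribosomal protein genes stood at 110804 to 154274 CPM in GFP+ and 73498 to 100877 CPM in GFP- libraries, and Malat1 at 34234 to 40352 and 49213 to 71336 CPM. Among cells with at least 3 microglia markers, Fos was at 2580 to 3330.2 CPM in GFP+ and 1662 to 2753 CPM in GFP- libraries, Rgs1 at 985 to 1399 and 631 to 945 CPM, and Hspe1 at 254 to 374 and 162 to 282 CPM, each higher in the GFP+ library of 4 of 4 mice. Ier5 in these cells was at 629 to 736 CPM in GFP+ and 934 to 1203 CPM in GFP- libraries, lower in 4 of 4. Among cells with 3 markers of CNS-associated macrophages, Ier5 was at 638 to 697 and 701 to 782 CPM, Fos at 2877 to 3565 and 2584 to 3329 CPM, and Hspe1 at 235 to 397 and 251 to 386 CPM, higher in 2 of 4 mice. Of the other heat shock members called with the block, Hspa1a and Hspa8 were higher in the GFP+ library of 4 of 4 mice among microglia-marker cells (mean log2 ratio 0.66 and 0.38 on plain CPM) and of 1 of 4 among macrophage-marker cells (0.02 and -0.02). Dnaja1 and Hsp90ab1 went from 4 of 4 (0.67 and 0.29) to 3 of 4 (0.07 and 0.03), whereas Hspa1b and Hsph1 were higher in 4 of 4 in both (1.01 and 0.71, and 0.42 and 0.27). Dnajb1 and Hspd1 went from 4 of 4 (0.59 and 0.51) to 3 of 4 (0.25 and 0.25), and Rgs1 was higher in 4 of 4 in both (0.50 and 0.41). Nr4a1 went from 0.86 (4 of 4) to 0.11 (3 of 4), and Fos from 0.44 to 0.11 (4 of 4 in both). Egr1, Socs3 and Ier5 were lower in 4 of 4 in both, at -1.04, -1.11 and -0.70 among microglia-marker cells and -0.42, -0.41 and -0.18 among macrophage-marker cells. The part of cell makeup in the differences between sorts was not tested.

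The other genes of these pathways were taken from lists chosen with earlier results known. Of 40 further immediate-early genes, 39 were tested, 4 rose (Bhlhe40, Sik1, Sertad1 and Dusp6) and 1 fell, the kinase gene Sgk1 (log2 -1.17, SE 0.21), so 12.8% were called against 32.5% of all genes. The median over this list was 0.14 (log2), and on plain CPM 2 of its genes rose and 7 fell (23.1% called, against 38.9% of all genes). With cells drawn to 500 UMIs, 5 of 36 tested rose and 4 fell, and the called share (25%) lay above that of all genes (13.6%). Of 34 further chaperones, 32 were tested, 17 rose (53.1%, against 16.6% of all genes) and none fell (against 15.9%), with a median of 0.38. Those that rose included Cct2, Cct3, Cct4, Cct5, Cct7, Cct8 and Tcp1, all subunits of the cytosolic chaperonin, and the Hsp90 co-chaperones Ahsa1, Cdc37, Ptges3, Stip1 and Fkbp4.

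Among these chaperones, Cct4 was at 144, 147, 123 and 125 CPM in GFP+ cells and 97.0, 97.8, 105 and 105 CPM in GFP- cells, without overlap (log2 0.69, SE 0.12). Ahsa1, the activator of the Hsp90 ATPase, was at 58.4, 68.8, 65.6 and 75.1 CPM against 47.7, 59.2, 51.3 and 57.3 CPM, which overlapped (log2 0.60, SE 0.11). The count for this list depended on the scale, with 2 higher and 3 lower on plain CPM (15.6% called, against 38.9% of all genes), and 1 higher and none lower with cells drawn to 500 UMIs (3.12% called, against 13.6%). Of 21 genes of the unfolded protein response, 20 were tested, Pdia3, Pdia4 and Manf rose and Sesn2 fell (4 of 20 called, against 32.5% of all genes). On plain CPM none of these 20 rose and 3 fell (15% called, against 38.9% of all genes).

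Heat shock members also differed between mice. Hspa1a stood at 129, 1148, 1064 and 1401 CPM in GFP+ cells and 81.1, 655, 976 and 779 CPM in GFP- cells. Both libraries of the i.v. female were far under the other 6. The mean of the other 3 mice was 9.36 times that of the i.v. female in GFP+ and 9.91 times in GFP- cells. Hspa1b was at 51.4, 587, 587 and 676 CPM and 18.1, 301, 419.7 and 339 CPM, so the ratio was 12.0 and 19.5.

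For Hsph1 the ratio was 8.52 in GFP+ and 5.23 in GFP- cells, for Hsp90aa1, the inducible Hsp90, 3.97 and 3.27, and for Dnaja1 3.26 and 3.07. It was 1.37 and 1.46 for Hspe1, less than the ratio of its GFP+ to GFP- mean (1.499), 1.59 and 1.87 for Hspd1, and 1.45 and 1.09 for Hspa5. All 12 heat shock members were lowest in the i.v. female in both sorts, against 12.6% of all genes tested, a pattern chosen after the values were seen. Only 9 of 26 immediate-early members shared it, among them Nr4a1, Klf2, Atf3, Cebpb and Myc, whereas Egr1, Ier2, Socs3 and Rgs1 were highest in this mouse in both sorts. With 1 female and 1 male per route, the mouse and the handling of its tissue cannot be told apart.

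**Figure D4:**
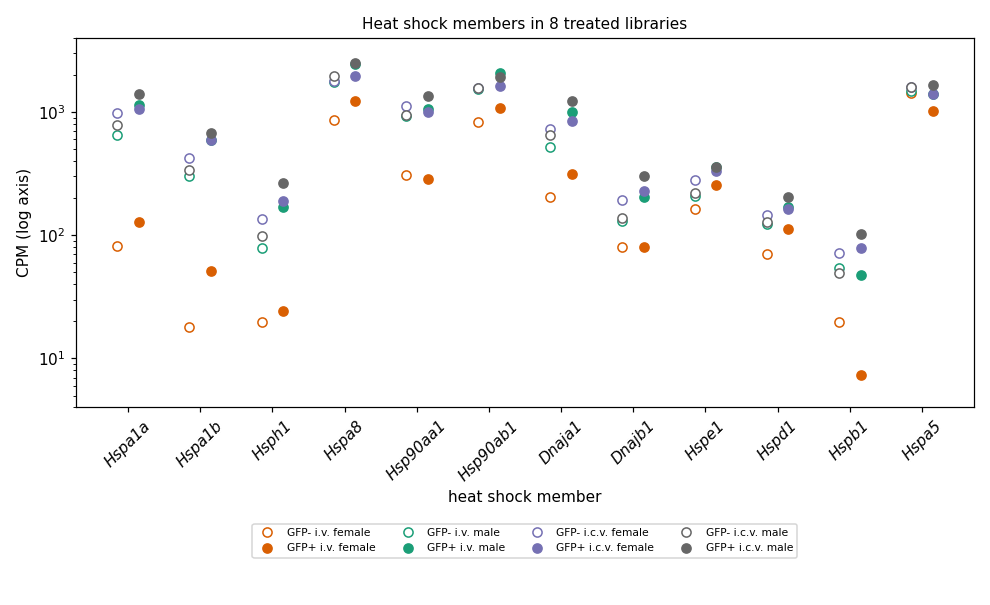
CPM on a log axis of the 12 heat shock members in 8 treated libraries, open points for GFP- and filled points for GFP+, with a color for each mouse. The points of the i.v. female (orange) are the lowest of each sort for all 12 members.

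Routes were compared within each sort, between 2 and 2 libraries. In the GFP+ sort, markers of other cells also split by route. Summed monocyte markers stood at 447 and 369 CPM after i.v. and 2.49 and 3.76 CPM after i.c.v. dosing. Summed neutrophil markers stood at 1682 and 3320 CPM against 112 and 120 CPM. The part of such cells in the route differences was not tested. In GFP+ cells none of the 38 members was called, against 2.78% of 12540 genes, and 4 members had an unadjusted p under 0.05 by edgeR, as did 2066 of all genes. DESeq2 called 1, Socs3. Hspb1, the small heat shock protein, stood at 7.39 and 47.3 CPM after i.v. and 79.5 and 103 CPM after i.c.v. dosing (log2 -1.66, SE 0.72, adjusted p = 0.303 from edgeR). Socs3 was higher after i.v. dosing (log2 0.96, SE 0.35, adjusted p = 0.218 from edgeR). Without the GFP+ library of the i.v. male, which leaves the i.v. female alone in that group with a spread taken from the other groups, Socs3 passed as higher (log2 1.41) and Hspb1 as lower (log2 -3.53).

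All 12 heat shock members were lower in i.v. than in i.c.v. mice in this comparison, with a median of -0.63 (log2), and none of these differences passed the test. Without the i.v. female's GFP+ library, 1 i.v. library is left, with a spread taken from the other groups. All 12 were refitted in this way, and log2 fold changes are given for the 7 among the named members. Hspb1 (log2 -0.84) and Hsph1 (log2 -0.32) stayed lower, Hspa8 (log2 0.25) and Hspe1 (log2 0.16) were above 0, and Dnaja1, Hspa1b and Hspd1 were at 0.05, 0.0081 and 0.0063. In GFP+ cells the i.v. male lay under both i.c.v. mice for 5 of the 12 heat shock members. Among these, it was almost equal to the i.c.v. female for Hspa1b (586.96 against 586.97 CPM) and Hspa5 (1400.88 against 1400.99 CPM). Hsp90ab1 was at 2070.0 CPM in the i.v. male against 1613 and 1937 CPM in the i.c.v. mice. In GFP- cells 0 members were called, as were 0 of 12540 genes (0%), by edgeR, and 5 members had an unadjusted p under 0.05 (0 on plain CPM), as did 1063 of all genes. DESeq2 called 0 members there. All 12 heat shock members were lower in i.v. mice in GFP- cells too, with a median of -0.79 (log2), and here the i.v. male itself lay under both i.c.v. mice for 11 of the 12, all but Hspb1.

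The difference between sorts was also compared between routes. By edgeR 0 members were called, against 1.91% of genes, and 1 member, Gadd45b, had an unadjusted p under 0.05, as did 2237 of all genes. Gadd45b, a stress-response gene of the DNA damage family, stood at 161, 296, 126 and 199.6 CPM in GFP+ cells and 157, 266, 255 and 342 CPM in GFP- cells. It was higher in the GFP+ library of both i.v. mice and lower in that of both i.c.v. mice. With the mouse as a block the interaction passed, at 1.21 (log2, SE 0.18, adjusted p = 0.0153 from edgeR), where 5.41% of genes were called.

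Naive microglia were compared with the GFP- libraries as a description, since there was 1 naive library. Of the 38 members 19 lay inside the range of the 4 GFP- libraries, 13 above and 6 below it, so 19 of 38 lay outside against 65.2% of all genes tested. Above the range were 7 of the 12 heat shock members, among them Hspa8 at 2071 CPM and Hspa1b at 646 CPM, and Junb at 3719 CPM, Zfp36 at 2278 CPM and Socs3 at 729.8 CPM. Below it were Atf3 at 1006 CPM, Klf2 at 1119 CPM, Klf6 at 863 CPM and Rgs1 at 622 CPM. Markers of other cells differed too, with summed neutrophil markers at 9238 CPM in naive microglia against 344 to 6053 CPM in the GFP- libraries. Monocyte markers were at 473 against 30.8 to 162 CPM, and T and NK cell markers at 113 against 0.460 to 7.71 CPM. The naive library differs from the treated ones in age, in conditioning, in depth (median 425 UMIs per cell) and in these markers. These differences cannot be told apart.

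In PBMCs the factor pattern differed from that of the brain cells. Cebpb, a factor of myeloid cells, was at 2486 CPM and Nr4a1 at 752 CPM, both above every treated library, while Jun was at 395 CPM, under every one. In PBMC cells with at least 3 monocyte markers, Cebpb was at 2812 CPM (95% Poisson interval 2735 to 2891) and Nr4a1 at 912 CPM (869 to 958), against 787 (732 to 845) and 235 (206 to 268) in cells with 3 B cell markers. Klf2, a factor of resting lymphocytes, was higher in the latter, at 2367 CPM (2271 to 2466) against 1619 CPM (1561 to 1679). The intervals cover counting error only.

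In the library labelled neurons, whose cells held oligodendrocyte markers, Hsp90aa1 was at 3215 CPM and Hsp90ab1 at 3759 CPM, above every treated library. Hspb1 was highest in astrocytes, at 154 CPM. Immediate-early members were low in both, with Fos at 163 CPM in the library labelled neurons and 245 CPM in astrocytes, and all 26 lay below the range of the treated libraries in each.

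The spread over cells was taken with 500 UMIs drawn from each cell. A cell with at least 10 immediate-early UMIs of 500 (2%) is called high here. High cells made up 51.1%, 50.6%, 51.5% and 67.2% of GFP+ cells and 70.8%, 70.1%, 69.5% and 75.2% of GFP- cells. The GFP- share was higher in every mouse and the ranges did not overlap. With 1000 UMIs per cell, which leaves out shallower cells, the shares were 51.0%, 48.0%, 50.4% and 64.8% of GFP+ cells and 66.8%, 62.3%, 61.2% and 68.9% of GFP- cells, still higher in every GFP- library than in its pair, but with overlapping ranges. In naive microglia, of which 482 of 1274 cells had 500 UMIs, 80.7% (95% Clopper-Pearson interval 76.9% to 84.1%) were high, in PBMCs 39.2% (34.0% to 44.7%), in astrocytes 2.01% (1.28% to 2.996%) and in the library labelled neurons 1.24% (0.458% to 2.69%). When 500 genes and no more than 5% mitochondrial UMIs were required, the last 2 shares were 5.15% of 388 astrocytes and 13.0% of 23 cells.

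The variance of the immediate-early UMIs over cells was 5.29 to 8.66 times the mean in GFP+ and 4.20 to 7.04 times in GFP- libraries, where draws from like cells would give close to 1. GFP+ libraries held more cells without an immediate-early UMI, at 7.57%, 3.57%, 2.94% and 1.41%, against 1.23%, 0.571%, 0.941% and 0.440%. At this depth Fos was detected in 42.2% to 55.3% of GFP+ and 42.1% to 54.1% of GFP- cells, which overlapped. Egr1 was detected in 12.5% to 20.9% of GFP+ and 27.7% to 42.0% of GFP- cells, Socs3 in 5.37% to 8.01% and 14.7% to 20.6%, and Ier5 in 21.8% to 24.6% and 36.0% to 41.4%, all without overlap. Jun (57.4% to 73.4% and 74.2% to 85.2%), Junb, Btg2, Ppp1r15a and Cebpd were also lower in GFP+ cells without overlap. The share of all genes without overlap in detection is not given here. In the library labelled neurons and in astrocytes, drawn to the same depth, the shares were 4.77% and 6.28% for Fos, 3.73% and 1.75% for Egr1, 0.415% and 0.960% for Socs3, and 1.24% and 2.09% for Ier5. The level of free RNA was not estimated in any library, so these shares count cells with a UMI, not cells that express the gene.

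In the treated libraries fewer cells were high in heat shock UMIs. High cells by the same threshold were 0.538%, 13.5%, 11.5% and 14.6% of GFP+ cells and 0.224%, 3.25%, 6.43% and 4.75% of GFP- cells. Only the i.v. female had under 1% in both sorts. The share was higher in the GFP+ library of each mouse, and the ranges overlapped because of the i.v. female. Naive microglia held 8.71% (6.35% to 11.6%) PBMCs 1.20% (0.327% to 3.04%), astrocytes 2.09% (1.35% to 3.1001%) and the library labelled neurons 9.13% (6.71% to 12.1%). The last share was 4.97% with 1000 UMIs per cell and 30.4% of the 23 cells left by the stricter filter. Under the main filter at 500 UMIs, 0.207% of cells in the library labelled neurons had no heat shock UMI, and 53.1% had no immediate-early UMI.

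**Figure D5:**
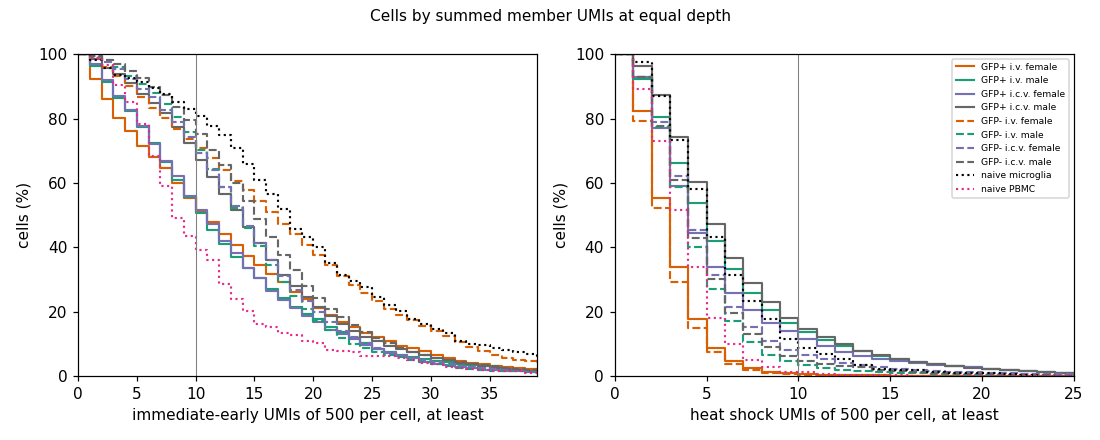
Share of cells (y axis, percent) with at least a given number of immediate-early (left) or heat shock (right) UMIs of 500 (x axis), by library, solid for GFP+, dashed for GFP- and dotted for naive cells, with a grey line at 10 UMIs. GFP+ curves lie under GFP- curves of the same mouse at the line on the left, and above them on the right.

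Some members were found together in cells of the treated libraries, as a description at equal depth. Jun was detected in 71.1% to 80.1% of the GFP+ cells with a Fos UMI and in 46.2% to 65.4% of those without one, and in 79.8% to 91.1% and 69.2% to 78.4% of GFP- cells. Hspa1b was detected in 17.2% to 43.6% of GFP+ cells with a Hspa1a UMI and in 2.71% to 17.2% of the others. High immediate-early cells of GFP+ libraries held a mean of 2.41, 6.92, 6.24 and 6.49 heat shock UMIs of 500, against 1.79, 3.21, 2.75 and 3.53 in the other cells. Cells high in the immediate-early set thus held more heat shock UMIs in all 4 GFP+ libraries, and the gap was smallest in the i.v. female. The same direction was seen in GFP- libraries, with 2.08, 3.91, 4.61 and 4.13 against 1.48, 2.52, 2.67 and 2.61. It was also seen in naive microglia (5.17 against 3.14), astrocytes (7.61 against 2.03, 23 high cells) and the library labelled neurons (9.83 against 5.76, 6 high cells). The reverse held in PBMCs, with means of 2.39 heat shock UMIs in high cells and 3.18 in the others. These PBMC groups also differed in makeup, since 37.4% of high cells and 70.0% of the others held markers of other cell types.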

How the data were processed

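The authors deposited UMI counts per gene and cell barcode from Cell Ranger (3.1.0, mm10, per the submitters' processing notes), without normalization. The members and gene lists were chosen with earlier results of these data known. Counts of kept barcodes were summed per library, and 38 members were compared by edgeR 4.0.16 quasi-likelihood tests (R 4.3.3, TMM, filterByExpr, two-sided, Benjamini-Hochberg over all genes), 4 against 4 libraries between sorts and 2 against 2 between routes in fits to all 8. Members named with full values were those called, the 5 largest changes between sorts or between routes in GFP+ cells, and the 5 highest levels, and Gadd45b and Hspa1a were added after their values were seen. The libraries of a sort pair come from the same mouse, with correlations of deviations of 0.205, -0.275, -0.331 and 0.013, so the fit with the mouse as a block is given beside results it changes. The tests were tested on simulated data, where smaller changes were recovered least often for the interaction and less often between routes than between sorts. Cells were thinned without replacement with Python 3.11.15 and numpy 2.4.6. Positions came from GENCODE on GRCm38, matched by Ensembl identifier. DESeq2 1.42.0 and the other alternatives are given in the closing section. Intervals cover counting error only.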

Additional observations from a re-analysis of the deposited data

Results flagged for a closer look

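Of 76 tests for a library far from the other 3 of its sort (38 members in each of 2 sorts, where chance flags about 1 in 20), 6 were met, and all 6 libraries were those of the i.v. female. In the GFP+ sort this library was highest for Egr1 (872 CPM), Ier2 (759 CPM) and Socs3 (350.2 CPM) and lowest for Nr4a1 (159 CPM) and Hspa1b (51.4 CPM). In the GFP- sort it was lowest for Hsp90ab1 (833 CPM).

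For 5 of 38 members the GFP+ library was, on the TMM scale, higher in both mice of a route and lower in both of the other. Random signs over 4 mice would flag about as many. The difference between the routes (i.v. minus i.c.v., log2) was -0.38 for Jun, 0.30 for Junb, 0.54 for Nfkbia, 0.34 for Nfkbiz and 1.23 for Gadd45b. Tested as an interaction by edgeR, none of the 5 passed without the block, with adjusted p of 0.269 for Gadd45b and 0.374 for Nfkbia. On plain CPM only Gadd45b kept opposite signs, and the GFP+ library was the lower one in all 4 mice for the other 4.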

How the results depend on the processing

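Between sorts 5 members were called, and the count was 3 with cells thinned to 500 UMIs, 15 with the mouse as a replicate block, 3 in the i.v. mice alone and 2 to 8 when each library was left out in turn. In the i.c.v. mice alone 4 members were called (2 higher and 2 lower), and none of the 5 main calls was among them. The count was 8 without the GFP+ library of the i.v. female, 2 without the i.c.v. male's GFP- library, and 3 without either library of the i.v. male or the i.c.v. male's GFP+ library. Of the other pathway genes 26 were called, against 17 on plain CPM (an alternative chosen after seeing the data), 11 thinned, 15 in i.v. and 6 in i.c.v. mice alone, and 9 to 23 with each library left out (9 and 12 without the GFP- and GFP+ libraries of the i.v. male, 13 without the i.v. female's GFP- library, 14 and 12 without the GFP- and GFP+ libraries of the male dosed i.c.v.). Between routes in GFP+ cells the count went from 0 to 1 with DESeq2 and from 0 to 2 without the GFP+ library of the i.v. male, and the interaction from 0 to 1 with recipient sex as a covariate or with the mouse as a block. No called member changed sign in any alternative run. Among the 16 named members, the sign of uncalled results changed in 14 of 336 comparisons between sorts. With 2 libraries per sort and route, the number of mice limits the comparisons of routes.

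The mean share of high immediate-early cells was 71.4% of GFP- cells at 500 UMIs, 64.8% at 1000 UMIs and 68.0% under the stricter filter. Immediate-early shares of naive libraries under all barcodes and the stricter filter were 0.143% and 0.562% in the library labelled neurons, 0.134% and 0.332% in astrocytes, 3.21% and 3.09% in microglia, and 1.43% and 2.05% in PBMCs. Heat shock shares in the same order were 0.921% and 1.36%, 0.388% and 0.541%, 0.853% and 1.0027%, and 0.493% in PBMCs under all barcodes. The cause of these shifts was not tested.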
